A study of Mus musculus with 6 samples.

Results

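The genes described here encode enzymes that make drugs, hormones, bile acids and dietary compounds easier to excrete. They were picked by a rule on gene symbols, which was set with earlier results of these data known. The rule takes the UDP-glucuronosyltransferases of families 1 and 2 (Ugt) and the cytosolic sulfotransferases (Sult). It also takes the glutathione S-transferases (Gst), the microsomal glutathione S-transferases (Mgst) and the carboxylesterases (Ces). The rule found 62 genes among the 19938 measured: 8 Ugt, 16 Sult, 19 Gst, 3 Mgst and 16 Ces. Carboxylesterases split esters and join nothing to their substrates, so that family belongs here by the rule and not by the chemistry of conjugation. No gene of the Ugt1a locus was among the 62, because its only probe set lists several genes.

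Glucuronosyltransferases join glucuronic acid to their substrates, sulfotransferases join sulfate, and glutathione transferases join the tripeptide glutathione to reactive compounds. The products are water soluble and leave the cell through efflux pumps of the ABC family. In the gut these enzymes are found mostly in the epithelium, above all in mature absorptive cells, and many of them are switched on by nuclear receptors or by the stress factor NRF2.

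Expression was measured on arrays in 3 control and 3 hypomethylated colon tumours. Every mouse carried ApcMin, a truncating Apc mutation that causes intestinal tumours, and the hypomorphic chip allele of Dnmt1, the gene of the maintenance DNA methyltransferase. The other Dnmt1 allele was wild type in the controls (Dnmt1chip/+; ApcMin/+) and the knockout allele c in the hypomethylated group (Dnmt1chip/c; ApcMin/+). All mice were hybrids of C57BL/6 and 129Sv4, received 2% dextran sodium sulfate, which injures the colon, at 6 weeks of age, and were 20 weeks old when the tumours were taken. Allele c is a conventional knockout, so the genotype singles out no cell type, and per the series' design text earlier work saw less methylation at satellite repeats in chip/c mice.

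Values are log2 values centred on the median of the 6 arrays for each probe set, so they show differences between tumours and hold no level; base 2 was inferred from the values. Where groups do not overlap in a gene with 1 probe set, centring makes the nearest values of the groups equal in size and opposite in sign. Sample descriptions share a number within the hypomethylated group and for 2 of the control tumours, and no label says that the tumours came from different mice, so the spread behind each p-value is that of these tumours alone, and the effect of 1 mouse and that of the genotype cannot be told apart. Dnmt1 itself fell by 0.87 ± 0.06 (SE) on the log2 scale (adjusted p = 3.13e-04). Where its probes lie relative to the altered parts of the alleles was not examined, so this does not check the genotypes. In whole tumours, fewer cells of a type and less RNA per cell cannot be told apart. Centred values cannot show whether a tissue marker is present; from the numeric step of the values, 8 of 15 absorptive colonocyte markers, and 24 of the 62 enzymes, were taken to lie at 8 or above on all 6 arrays before centring.

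More of the enzymes rose than fell in the hypomethylated tumours. Of the 62, 19 rose, 7 fell and 36 did not pass limma's test at an adjusted p of 0.05 over all genes. Over all 19938 genes 32.0% were called, 10.7% as higher and 21.3% as lower, against 30.6% and 11.3% of the enzymes. The median difference was 0.12 over the 62 enzymes and -0.01 over all genes. Changes of at least 2-fold were an increase in 8 enzymes (2.34% of all genes) and a decrease in 2 (1.55% of all genes). Called or not, 36 of the 62 enzymes had groups that did not overlap, against 46.4% of all genes: 27 lay above the controls and 9 below, against 17.9% and 28.5% of all genes. The 26 called enzymes are among them, which the call at 3 against 3 nearly fixes. For such a gene the exact two-sided permutation test of 3 against 3 gives p = 0.1, the smallest it allows. Of the 36 enzymes that did not pass, 7 had an unadjusted p under 0.05 and 30 differed by less than 0.25 on the log2 scale.

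**Figure D1:**
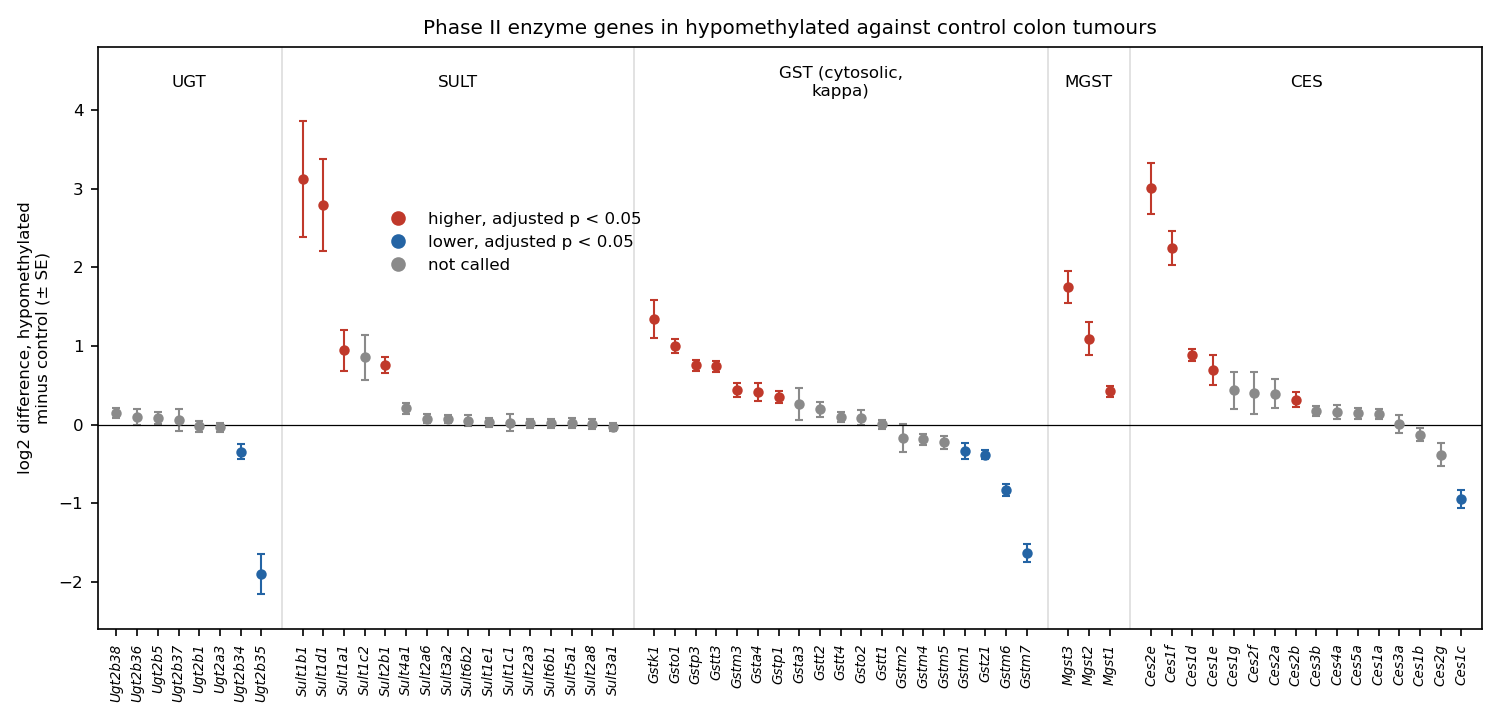
Log2 difference between hypomethylated and control tumours (vertical axis, points with SE, n = 3 per group) for all 62 enzymes, grouped by family and sorted within it. The increases reach 3.12 (Sult1b1) and the decreases -1.90 (Ugt2b35); all 3 Mgst genes lie above 0, and no Ugt gene was called higher.

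The sulfotransferases held the largest increase of all 62 enzymes and no called decrease. Of the 16, 4 rose and 12 did not pass (0 fell, also at an unadjusted p under 0.05 in limma), with a family median of 0.06. The share that rose was 25.0%, against 10.7% of all genes, and 21.3% of all genes fell. Sult1b1 encodes a sulfotransferase of phenols and thyroid hormones. Its centred values were -1.62, -3.91 and -0.68 in the controls against 0.68, 1.32 and 1.15 in the hypomethylated tumours. Control replicate 2 was far below the other control tumours, and the groups did not overlap. The means were -2.07 ± 1.66 and 1.05 ± 0.33 (SD, n = 3 each), a difference of 3.12 ± 0.74 (SE), or 8.68-fold (adjusted p = 0.0173). Leaving out control replicate 2 gave a difference of 2.20. The call was lost without hypomethylated replicate 2 (adjusted p = 0.0597) and without hypomethylated replicate 3 (adjusted p = 0.0547).

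Sult1d1, the next gene along chromosome 5, encodes an enzyme that sulfates dopamine and other catecholamines. It stood at -1.23, -2.47 and -0.44 in the controls against 0.44, 2.00 and 1.80 in the hypomethylated tumours. Control replicate 2 was again the lowest and hypomethylated replicate 1 the lowest of its group. The means of -1.38 ± 1.02 and 1.41 ± 0.85 (SD, n = 3 each) differed by 2.79 ± 0.58 (SE), or 6.93-fold (adjusted p = 0.0107). The estrogen sulfotransferase gene Sult1e1, which follows Sult1d1, differed by 0.03 (95% interval -0.11 to 0.17). Sult1b1 has 2 starts in RefSeq and Sult1d1 has 1, and only the start farthest upstream was taken. Both neighbours that rose have few CpG dinucleotides, the sites that DNMT1 methylates, in the 250 bases before that start (GRCm38.p6). The sequences are printed with CpG in capitals, 5′ to 3′, to show how few such sites lie there: 0 for Sult1b1 (chr5:87538196-87538445, minus strand) and 2 for Sult1d1 (chr5:87569007-87569256, minus strand).
Sult1b1: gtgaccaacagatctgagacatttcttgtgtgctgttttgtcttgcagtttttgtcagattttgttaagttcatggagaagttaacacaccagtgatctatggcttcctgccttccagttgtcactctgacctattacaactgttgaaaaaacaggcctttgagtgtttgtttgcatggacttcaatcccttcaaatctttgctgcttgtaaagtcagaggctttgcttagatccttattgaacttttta
Sult1d1: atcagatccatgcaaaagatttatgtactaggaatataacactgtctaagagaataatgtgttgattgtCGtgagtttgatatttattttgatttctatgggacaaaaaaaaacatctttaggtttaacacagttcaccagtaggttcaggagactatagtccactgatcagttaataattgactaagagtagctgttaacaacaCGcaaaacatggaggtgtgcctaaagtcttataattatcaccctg

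Sult1a1, the main phenol sulfotransferase, rose by 0.94 ± 0.26 (SE), 1.92-fold (adjusted p = 0.0306), and Sult2b1, which sulfates cholesterol and other hydroxysteroids, by 0.76 ± 0.10, 1.69-fold (adjusted p = 0.00210). The call of Sult1a1 was lost without any one control tumour and without hypomethylated replicate 3. Sult1c2 stood just outside the threshold: its values were -0.08, -0.32 and 0.00 in the controls against 0.00, 1.09 and 1.09 in the hypomethylated tumours, a difference of 0.86 with a 95% interval of 0.18 to 1.53 (adjusted p = 0.0592). Hypomethylated replicate 1 lay at the level of the highest control tumour. Sult3a1 had the lowest difference of the family, at -0.03 (95% interval -0.15 to 0.09), with values of -0.01, 0.03 and 0.02 against -0.03, 0.01 and -0.03. Sult4a1, the brain-type member, differed by 0.21 (adjusted p = 0.0571). The other 8 sulfotransferases differed by between 0.01 (Sult2a8) and 0.08 (Sult2a6). The count of 4 fell to 2 without hypomethylated replicate 3 and rose to 6 without hypomethylated replicate 1.

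Carboxylesterases rose in 5 of 16 cases and fell in 1, with a family median of 0.24. These are 31.25% higher and 6.25% lower, against 10.7% and 21.3% of all genes. Ces2e belongs to the carboxylesterase 2 group, the main one in the intestine. Its values were -1.37, -2.25 and -1.04 in the controls against 1.04, 1.83 and 1.49 in the hypomethylated tumours. Every hypomethylated tumour exceeded every control tumour by at least 2 log2 units. The means were -1.55 ± 0.63 and 1.45 ± 0.40 (SD, n = 3 each), a difference of 3.00 ± 0.33 (SE), 8.01-fold (adjusted p = 0.0010). Ces2b, another gene of that group, rose by 0.32 (adjusted p = 0.0364), whereas Ces2a, Ces2f and Ces2g differed by 0.39, 0.40 and -0.38 and did not pass. In Ces2f a single hypomethylated tumour, replicate 1, stood at 1.02 and the other 5 tumours lay between -0.12 and 0.05.

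The carboxylesterase 1 genes, which lie in a row on chromosome 8 and include liver and fat enzymes that hydrolyse triglycerides, moved in both directions. Ces1f, a triglyceride hydrolase known from liver, stood at -1.40, -0.86 and -0.82 in the controls against 0.82, 1.29 and 1.52 in the hypomethylated tumours. The means of -1.03 ± 0.32 and 1.21 ± 0.36 (SD, n = 3 each) differed by 2.24 ± 0.22 (SE), 4.73-fold (adjusted p = 6.81e-04). Ces1d rose by 0.89 ± 0.07 (SE; adjusted p = 4.69e-04) and Ces1e by 0.69 ± 0.19 (adjusted p = 0.0295). Ces1c, the esterase of mouse plasma, went the other way, with 0.70, 0.36 and 0.35 in the controls against -0.58, -0.50 and -0.35 in the hypomethylated tumours. It fell by 0.95 ± 0.11 (SE) on the log2 scale, from a mean of 0.47 ± 0.20 to one of -0.48 ± 0.11 (SD, n = 3 each; adjusted p = 0.00133). Ces1a, Ces1b and Ces1g differed by 0.14, -0.13 and 0.44 and did not pass. In Ces1g control replicate 1 stood at -0.92, apart from the other control tumours at -0.28 and 0.09.

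Ces3a, Ces3b, Ces4a and Ces5a differed by 0.01 to 0.17 and did not pass. Leaving out replicate 1 or 2 of the controls, or replicate 2 or 3 of the hypomethylated tumours, left 3 carboxylesterases that rose, the calls lost being those of Ces1e and Ces2b. Without hypomethylated replicate 1 the number that fell was 2, Ces2g being added. Only 2 of the 16, against 15 of the 19 Gst genes, were taken to lie at 8 or above on every array.

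**Figure D2:**
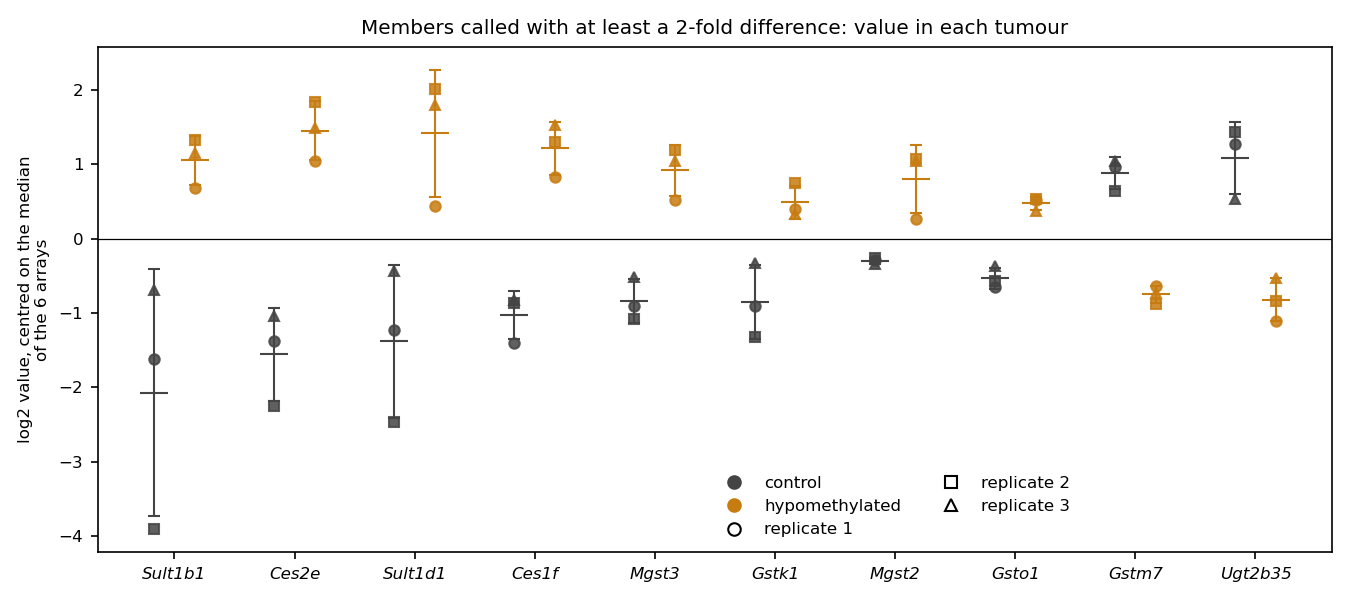
Centred log2 value of each tumour (vertical axis; symbols give the replicate, grey for control and orange for hypomethylated) for the 10 enzymes called with at least a 2-fold difference, with mean and SD. The groups do not overlap in any of the 10, which the choice of these genes nearly fixes; the share over all genes is 46.4%. Control replicate 2 is lowest in Sult1b1 (-3.91), Ces2e (-2.25) and Sult1d1 (-2.47).

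All 3 microsomal glutathione transferase genes rose, against 10.7% of all genes, and 21.3% of all genes fell. The 3 encode membrane proteins of the MAPEG family, which also makes leukotrienes and prostaglandins. Mgst3 had values of -0.91, -1.09 and -0.52 in the controls against 0.52, 1.18 and 1.04 in the hypomethylated tumours. Its means were -0.84 ± 0.29 and 0.91 ± 0.35 (SD, n = 3 each), a difference of 1.75 ± 0.20 (SE), 3.37-fold (adjusted p = 0.00127). Mgst2, which can make leukotriene C4, was tightly grouped in the control tumours at -0.28, -0.27 and -0.35. Among the hypomethylated tumours replicate 1 stood at 0.27 and replicates 2 and 3 at 1.07 and 1.04. Mgst2 rose by 1.09 ± 0.21 (SE), 2.13-fold (adjusted p = 0.00734), from a mean of -0.30 ± 0.04 to one of 0.79 ± 0.46 (SD, n = 3 each). Mgst1, an abundant protein of the endoplasmic reticulum and outer mitochondrial membrane, had the smallest change of the family. Its values of -0.26, -0.13 and -0.32 against 0.16, 0.13 and 0.27 gave a rise of 0.42 ± 0.07 (SE; adjusted p = 0.00556), with means of -0.24 ± 0.10 and 0.19 ± 0.08 (SD, n = 3 each). The 3 calls held under every alternative normalization, weighting and filter and without any single tumour. Mgst3 differs from the Sult1 neighbours in CpG count: the 250 bases before its start (chr1:167393842-167394091, minus strand, GRCm38.p6) hold 17 CpG, which are shown in capitals.
Mgst3: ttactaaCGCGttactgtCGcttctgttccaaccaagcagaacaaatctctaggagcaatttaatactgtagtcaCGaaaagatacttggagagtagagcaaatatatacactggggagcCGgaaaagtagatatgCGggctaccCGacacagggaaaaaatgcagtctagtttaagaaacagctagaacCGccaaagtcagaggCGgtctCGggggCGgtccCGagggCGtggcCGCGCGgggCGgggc

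Of the 19 cytosolic and mitochondrial glutathione transferases 7 rose, 4 fell and 8 did not pass, with a median of 0.09. These are 36.8% higher and 21.1% lower, against 10.7% and 21.3% of all genes, so the share that fell is that of the background. Gstk1, the kappa-class enzyme of mitochondria and peroxisomes, had values of -0.91, -1.32 and -0.33 in the controls against 0.39, 0.74 and 0.33 in the hypomethylated tumours. Its means of -0.85 ± 0.50 and 0.49 ± 0.22 (SD, n = 3 each) differed by 1.34 ± 0.24 (SE), 2.53-fold (adjusted p = 0.00616). Gsto1, the omega-class enzyme that reduces dehydroascorbate, stood at -0.65, -0.57 and -0.37 against 0.52, 0.53 and 0.37. The spread within each group was small, and its means of -0.53 ± 0.14 and 0.47 ± 0.09 (SD, n = 3 each) differed by 1.00 ± 0.09 (SE; adjusted p = 5.21e-04). Gsto2, its neighbour, differed by 0.09 (95% interval -0.13 to 0.30).

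For the single classes, too, the shares over all genes were 10.7% higher and 21.3% lower. Both pi-class genes rose, Gstp3 by 0.75 ± 0.07 (SE) and Gstp1 by 0.35 ± 0.08, although the call of Gstp1 was lost without control replicate 1. Of the theta class, whose 4 genes are neighbours on chromosome 10, Gstt3 rose by 0.74 ± 0.07 (adjusted p = 6.81e-04), and Gstt1, Gstt2 and Gstt4 differed by 0.01, 0.20 and 0.09. Gsta4 of the alpha class, which conjugates the lipid peroxidation product 4-hydroxynonenal, rose by 0.42 ± 0.12 (adjusted p = 0.0325), a call lost without any single tumour except control replicate 2. Gsta3 differed by 0.26 (adjusted p = 0.384), and its control tumours were spread from -0.58 to 0.25. Gstz1, the zeta-class maleylacetoacetate isomerase of tyrosine breakdown, fell by 0.38 ± 0.06 (SE) on the log2 scale (adjusted p = 0.00307), with control values between 0.16 and 0.18.

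The mu class held changes in both directions. Of its 7 genes, which stand in a row on chromosome 3, 3 fell, 1 rose and 3 did not pass, with a median of -0.23. These are 42.9% lower and 14.3% higher, against 21.3% and 10.7% of all genes. Gstm7 had 0.96, 0.64 and 1.04 in the controls against -0.64, -0.88 and -0.73 in the hypomethylated tumours. It fell by 1.63 ± 0.12 (SE) on the log2 scale, to a 3.10-fold lower level, from a mean of 0.88 ± 0.21 to one of -0.75 ± 0.12 (SD, n = 3 each; adjusted p = 3.08e-04). Gstm6, next to it, fell by 0.84 ± 0.08 (adjusted p = 6.17e-04), and Gstm1 fell by 0.34 ± 0.10 (adjusted p = 0.0402). The call of Gstm1 did not survive centring each array on its median, nor did it hold when replicate 1 or 3 of the controls or hypomethylated replicate 2 was left out. Gstm2, Gstm4 and Gstm5 differed by -0.17, -0.19 and -0.23 and did not pass.

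Gstm3 was the gene of the row that rose, by 0.44 ± 0.09 (SE; adjusted p = 0.00940). Its 2 probe sets did not behave alike: in a fit over all probe sets one rose by 0.73 ± 0.12 (adjusted p = 0.00609) and the other differed by 0.14 (adjusted p = 0.297). The mu-class genes are close copies of each other, and reads of one transcript by the probes of another were not tested; the same holds within Ces1, Ugt2b, Sult2a and the pi class. The windows before Gstm7 (chr3:107931818-107932067, minus strand) and Gstm3 (chr3:107969175-107969424, minus strand), 2 members of one row that moved in opposite directions, are printed for comparison. Gstm7 has 2 starts, of which only the one farthest upstream was taken, and Gstm3 has 1. Each window holds 4 CpG, in capitals.
Gstm7: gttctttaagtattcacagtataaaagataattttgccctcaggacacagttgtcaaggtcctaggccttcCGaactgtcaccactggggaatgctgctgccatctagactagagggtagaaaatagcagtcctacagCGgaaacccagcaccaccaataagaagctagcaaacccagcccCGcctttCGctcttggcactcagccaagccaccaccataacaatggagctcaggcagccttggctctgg
Gstm3: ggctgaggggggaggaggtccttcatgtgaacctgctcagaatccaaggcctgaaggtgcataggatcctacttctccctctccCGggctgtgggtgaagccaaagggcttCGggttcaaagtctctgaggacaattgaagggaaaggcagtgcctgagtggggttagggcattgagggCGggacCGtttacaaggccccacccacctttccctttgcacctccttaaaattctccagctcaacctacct

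Of the 8 glucuronosyltransferases of family 2, 0 rose, 2 fell and 6 did not pass in limma, with a median of 0.02. Over all genes 10.7% rose and 21.3% fell, so with 8 genes these counts lie near the background. At an unadjusted p under 0.05 Ugt2b38 was the only one above 0, at 0.15 (adjusted p = 0.109), with values of -0.02, -0.09 and -0.07 against 0.02, 0.15 and 0.09. Ugt2b35 stood at 1.27, 1.43 and 0.53 in the controls against -1.10, -0.84 and -0.53 in the hypomethylated tumours, so that control replicate 3 came nearest to the other group. It fell by 1.90 ± 0.25 (SE) on the log2 scale, to a 3.73-fold lower level, with means of 1.08 ± 0.48 and -0.82 ± 0.29 (SD, n = 3 each; adjusted p = 0.00199). Ugt2b34 fell by 0.34 ± 0.09 (adjusted p = 0.0256), a call lost with quantile normalization, with the replicate number as a block and without control replicate 1 or 2. The remaining 5 genes, Ugt2a3, Ugt2b1, Ugt2b5, Ugt2b36 and Ugt2b37, differed by -0.04 to 0.09. The window before Ugt2b35 (chr5:87000610-87000859, plus strand), shown because this gene had the largest decrease of the 62, holds 2 CpG, in capitals.
Ugt2b35: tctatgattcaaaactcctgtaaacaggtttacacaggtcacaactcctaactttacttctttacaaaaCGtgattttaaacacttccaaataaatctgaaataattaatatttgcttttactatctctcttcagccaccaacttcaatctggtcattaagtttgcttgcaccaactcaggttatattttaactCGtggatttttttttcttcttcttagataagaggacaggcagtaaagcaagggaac

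Many of the enzymes lie next to each other, and neighbours did not always move together. With no other protein-coding gene between them in RefSeq, 46 of the 62 enzymes form 12 rows, with 34 pairs of adjacent genes. In 3 of these pairs both genes rose and in 1, Gstm7 with Gstm6, both fell. In 2 pairs one gene rose and the other fell: Gstm6 with Gstm3, and Ces1c with Ces1d. In 14 pairs 1 gene was called and in 14 neither. Over the 62 enzymes 30.6% rose and 11.3% fell. Whether adjacent genes moved together more often than these shares alone would give was not tested. The pairs that rose together were Sult1b1 with Sult1d1, Ces1d with Ces1e, and Ces1e with Ces1f. The 8 neighbouring Ugt2 genes on chromosome 5 held the largest decrease between 2 genes that did not pass, Ugt2b1 and Ugt2b36.

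**Figure D3:**
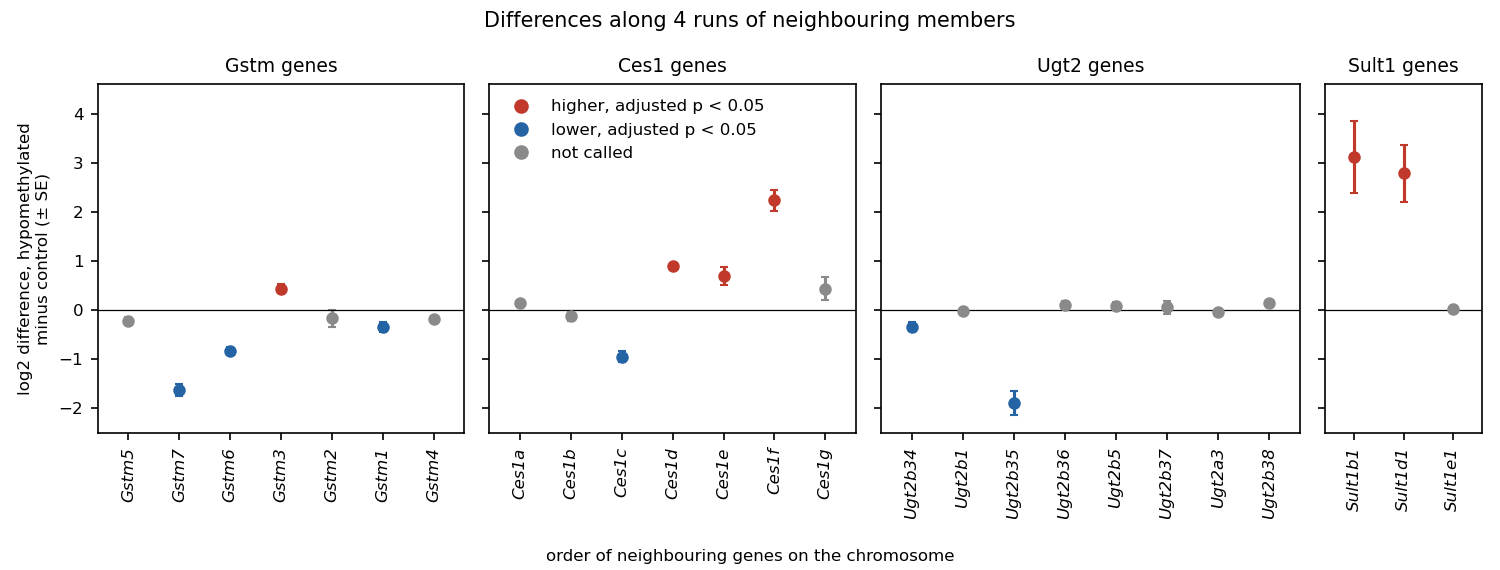
Log2 difference between hypomethylated and control tumours (vertical axis, points with SE, n = 3 per group) along 4 rows of neighbouring enzyme genes, in chromosome order and not to scale. Gstm6 (-0.84) and Gstm3 (0.44) as well as Ces1c (-0.95) and Ces1d (0.89) are adjacent and moved in opposite directions.

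The promoters of the enzymes are poor in CpG. Of the 62 genes 55 have a window in RefSeq, here the 250 bases before the start that lies farthest upstream. Their median was 2 CpG, against 11 over the 15563 measured genes with a window. By family the median was 1 in Ugt, 1 in Sult, 2 in Ces, 6 in Gst and 10 in Mgst. At least 10 CpG were found in 8 of 17 Gst, 2 of 3 Mgst, 1 of 15 Sult, 0 of 12 Ces and 0 of 8 Ugt windows. Over the measured genes this share was 54.7%, so the split by CpG below is largely one by family. The median was 4 in the 15 enzymes that rose, 3 in the 7 that fell and 2 in the 33 that did not pass. Of the 11 enzymes with at least 10 CpG, 6 rose and 2 fell; of the 37 with at most 3 CpG, 7 rose and 4 fell. Over all measured genes 10.6% of those with at least 10 CpG rose and 30.7% fell, and with at most 3 CpG the shares were 9.17% and 6.39%. Methylation was not measured in these data.

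Short motifs known for factors that act on such genes were searched in the same windows on both strands, without regard to overlap between motifs. The core of the antioxidant response element, TGACNNNGC, was found before 3 of 55 enzymes and before 10.1% of all 27025 genes with a window. The core of the xenobiotic response element bound by the aryl hydrocarbon receptor, GCGTG, was found before 6 of 55 and before 28.3% of all. This motif contains a CpG. The CDX motif TTTATNG was found before 4 of 55 and 10.2% of all, and a short HNF1 motif, GTTAAT, before 9 of 55 and 6.54% of all. Over the 15563 measured genes with a window the 4 shares, in the same order, were 10.8%, 36.2%, 8.69% and 5.61%. Enzymes that rose held 1, 4, 0 and 2 of these matches, in the same order. Enzymes that fell held 0, 1, 0 and 0, and those that did not pass 2, 1, 4 and 7. Among the sequences printed, Sult1d1 holds GCGTG and GTTAAT and Mgst3 holds GCGTG.

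Within each group, the tumour most often lowest in the enzymes that rose was also the one most often lowest in all genes called higher. Control replicate 2 was the lowest control tumour in 10 of 19 (52.6%) and hypomethylated replicate 1 the lowest of its group in 14 of 19 (73.7%). Over the 2124 genes called higher these shares were 45.2% and 60.9%. The mean of the 19 enzymes was -0.60, -0.83 and -0.39 in the controls against 0.35, 0.79 and 0.68 in the hypomethylated tumours. The mean of the 7 that fell was 0.58, 0.46 and 0.40 against -0.46, -0.50 and -0.33. Here control replicate 1 was the highest control tumour in 5 of 7; over the 4256 genes called lower it was so in 26.2%, and control replicate 2 in 48.4%.

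Some lists of cell type markers mostly rose and others mostly fell or showed few calls. Over all genes 10.7% rose and 21.3% fell. The marker lists, too, were chosen with earlier results of these data known. Of 15 measured markers of absorptive colonocytes, the mature surface cells in which many of the enzymes are normally found, 13 rose and none fell, and their mean ranged from -1.59 to -0.91 in the control tumours and from 0.85 to 1.43 in the hypomethylated ones. Control replicate 2 and hypomethylated replicate 1 were the lowest of their groups, as they most often were over all genes called higher. Goblet cell markers rose in 8 of 9 cases (5 without hypomethylated replicate 3), with means of -2.24 to -0.52 against 0.46 to 0.94. Fibroblast markers fell in 7 of 10 cases (4 without hypomethylated replicate 3), with means of 0.11 to 0.47 against -0.56 to -0.11. Smooth muscle markers fell in 4 of 8 (means 0.13 to 0.35 against -0.36 to -0.11). Endothelial markers fell in 5 of 9 and 1 rose (means 0.05 to 0.17 against -0.34 to -0.01). The fallen endothelial markers numbered 2 when replicate 2 or 3 of the controls or replicate 3 of the hypomethylated tumours was left out, and 3 without hypomethylated replicate 2.

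Macrophage markers fell in 4 of 9 cases, in 8 without hypomethylated replicate 1 and in 0 without any one of the other 5 tumours, and their means overlapped (-0.02 to 0.49 against -0.82 to 0.01). Mast cell markers passed in 0 of 9 cases in limma, with 2 lower and 0 higher at an unadjusted p under 0.05 (as lower, 3 passed without control replicate 2, 1 without hypomethylated replicate 1 and 4 with array weights). Of 8 T and B lymphocyte markers 1 rose, Ms4a1 (0 without control replicate 1, 2 without hypomethylated replicate 3). Adipocyte markers, which bear on Ces1d and Ces1f, rose in 2 of 7 cases, Cidec and Retn, and in 1 when replicate 2 or 3 of either group was left out. Cidec rose by 1.20 (adjusted p = 0.00384 in limma) and Retn by 0.26 (adjusted p = 0.0211), while Adipoq differed by 0.09. None of the 7 was taken to lie at 8 or above on every array. Of 7 liver markers 3 fell and 1 rose, and 1 fell without control replicate 1, hypomethylated replicate 2 or hypomethylated replicate 3. The part that cell types have in the differences of the enzymes was not tested.

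**Figure D4:**
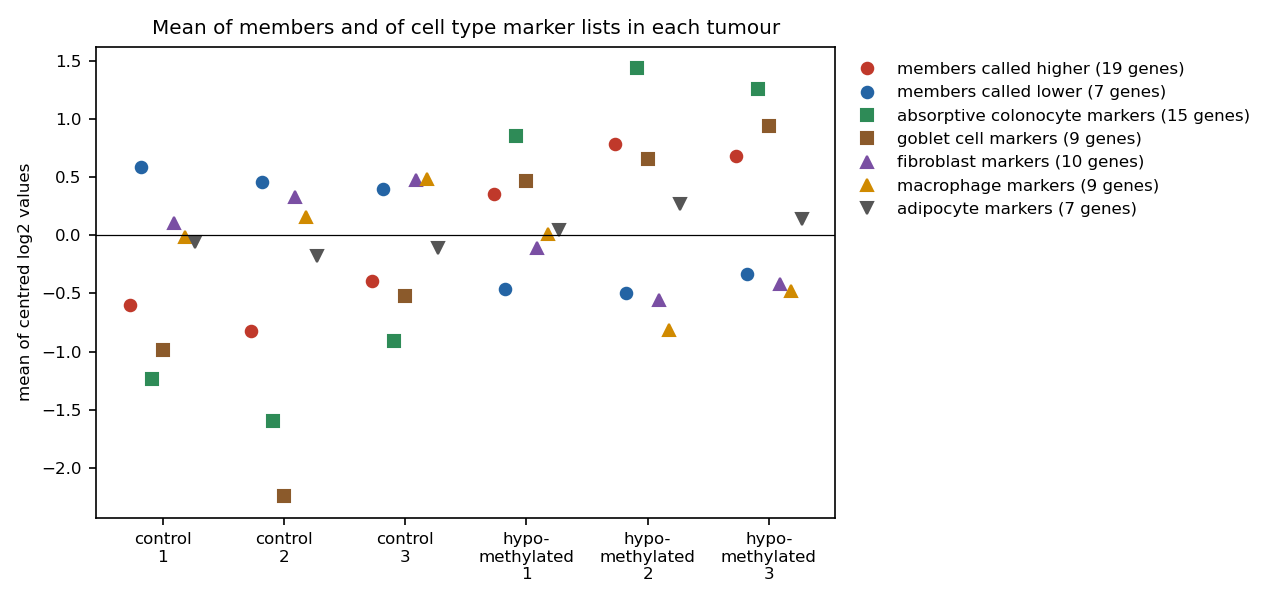
Mean of the centred log2 values (vertical axis) in each of the 6 tumours for the enzymes called higher or lower and for 5 lists of cell type markers. The mean of the 19 enzymes that rose is below 0 in every control tumour and above 0 in every hypomethylated one. The call and the centring nearly fix this. The mean of the colonocyte markers lies on the same sides of 0. Both means are lowest in control replicate 2 (-0.83 and -1.59).

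Genes that work with the conjugation enzymes were counted by role, from lists of 105 genes outside the families, of which 99 were measured. Of these 44 rose and 12 fell, which is 44.4% and 12.1%, against 10.7% and 21.3% of all genes. The lists were chosen with earlier results of these data known, so these counts are no independent support. Regulators rose in 10 of 21 cases (6 without control replicate 1) and fell in 3. Cdx2, the homeobox factor of intestinal identity, rose by 3.49 ± 0.23 (SE), the bile acid receptor gene Nr1h4 by 2.43 ± 0.17, the vitamin D receptor gene Vdr by 1.76 ± 0.10 and Pparg by 1.44 ± 0.12. Nr1i2, the pregnane X receptor that senses drugs and bile acids, stood at -0.67, -1.00 and -0.50 in the controls against 0.50, 1.07 and 0.78 in the hypomethylated tumours. This was a rise of 1.50 ± 0.17 (SE), 2.84-fold (adjusted p = 0.00123). Hnf4a, a hepatocyte and gut epithelial factor, rose by 0.60 ± 0.08 (adjusted p = 0.00210). The regulators that fell were Ahr, the dioxin receptor (-0.83 ± 0.08, adjusted p = 7.16e-04), Foxa2 (-0.78) and Mafg (-0.24). Nfe2l2, the gene of NRF2, differed by -0.07 ± 0.07 (adjusted p = 0.511).

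Genes that NRF2 is known to activate, other than the enzymes themselves, rose in 12 of 18 cases and fell in 2. These are 66.7% higher and 11.1% lower, against 10.7% and 21.3% of all genes. Without control replicate 1 the number that rose was 7. Nqo1, a quinone reductase, had values of -0.95, -0.61 and -0.92 in the controls against 0.61, 0.79 and 0.90 in the hypomethylated tumours, and rose by 1.60 ± 0.11 (SE), 3.02-fold (adjusted p = 3.08e-04). Me1, the malic enzyme, rose by 1.71 ± 0.09, the sulfiredoxin gene Srxn1 by 1.46 ± 0.16 and Akr1b8, an aldo-keto reductase, by 1.14 ± 0.15. The genes of this list that fell were the cystine carrier Slc7a11 (-0.60, adjusted p = 0.0117) and heme oxygenase 1, Hmox1 (-0.70, adjusted p = 0.0486). The call of Hmox1 was lost under every alternative normalization, weighting and moderation, with the replicate block and without any single tumour except hypomethylated replicate 1.

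Of 18 measured genes for the synthesis and transport of cosubstrates, 10 rose and 1 fell, Slc7a11 (2 without hypomethylated replicate 3). These are 55.6% higher and 5.56% lower, against 10.7% and 21.3% of all genes. Gclc, Gclm, Gsr and Slc7a11 are in this list and in that of NRF2 targets. Ugdh, which makes UDP-glucuronic acid, rose by 0.83 ± 0.11 (SE; adjusted p = 0.00176), and Slc35d1, which carries UDP-glucuronic acid into the endoplasmic reticulum, by 1.09 ± 0.11 (adjusted p = 8.65e-04). For glutathione, the cystathionine lyase gene Cth rose by 0.99 ± 0.12, the synthetase gene Gss by 0.61 ± 0.10 and Gclc, the catalytic subunit of the limiting enzyme, by 0.45 ± 0.09 (adjusted p = 0.00940). Papss2, which makes the sulfate donor, differed by 0.11 ± 0.18 (adjusted p = 0.705), with values from -0.35 to 0.25 in the control tumours and -0.24 to 0.24 in the hypomethylated ones.

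Other conjugating enzymes rose in 4 of 21 cases and fell in 5, with a median of -0.07. These are 19.0% higher and 23.8% lower, against 10.7% and 21.3% of all genes, so the share that fell is near the background. The fallen genes numbered 3 when replicate 1 or 2 of the controls or hypomethylated replicate 3 was left out, and 2 without hypomethylated replicate 2. Hpgds, a sigma-class glutathione transferase that makes prostaglandin D2, stood at 0.81, 0.82 and 0.94 in the controls against -0.95, -1.13 and -0.81 in the hypomethylated tumours. It fell by 1.81 ± 0.09 (SE) on the log2 scale, to a 3.52-fold lower level (adjusted p = 1.49e-04). Ptges, a MAPEG relative of the Mgst genes that makes prostaglandin E2, fell by 0.93 ± 0.17 (adjusted p = 0.00703). The others that fell were Tpst1, Gstcd and Tpmt. The N-acetyltransferase gene Nat2 rose by 1.04 ± 0.07 (adjusted p = 2.64e-04) and the medium-chain acyl-CoA synthetase gene Acsm3 by 0.91 ± 0.20 (adjusted p = 0.0129). Hydrolases outside the Ces family rose in 5 of 13 cases, and 0 fell, also at an unadjusted p under 0.05. Among them were the microsomal esterase gene Aadac (2.09 ± 0.34), butyrylcholinesterase, Bche (1.21 ± 0.24), and the paraoxonase genes Pon2 (0.69 ± 0.09) and Pon3 (0.53 ± 0.07).

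Of 12 transporter genes, mostly pumps that carry conjugates and drugs out of cells, 5 rose and 2 fell. These are 41.7% higher and 16.7% lower, against 10.7% and 21.3% of all genes. The 5 include Slco2a1 (1.01 ± 0.15), a prostaglandin uptake carrier, and the list also holds its relative Slco3a1 (0.02 ± 0.13). Abcc3, which exports glucuronides across the basolateral membrane, had values of -0.96, -1.01 and -0.72 in the controls against 0.72, 1.17 and 0.92 in the hypomethylated tumours. It rose by 1.84 ± 0.13 (SE), 3.57-fold (adjusted p = 3.05e-04). Abcc2, the apical pump for the same kinds of conjugate, went the opposite way, with 0.96, 0.75 and 1.04 against -0.75, -0.83 and -1.07. It fell by 1.80 ± 0.11 on the log2 scale, to a 3.48-fold lower level (adjusted p = 2.40e-04). Neither gene's groups overlapped. The multidrug pumps Abcb1a and Abcg2 rose by 2.19 ± 0.27 and 2.05 ± 0.21. The other gene that fell was Abcc5 (-0.29), whose call was lost without control replicate 2 and with the replicate block.

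**Figure D5:**
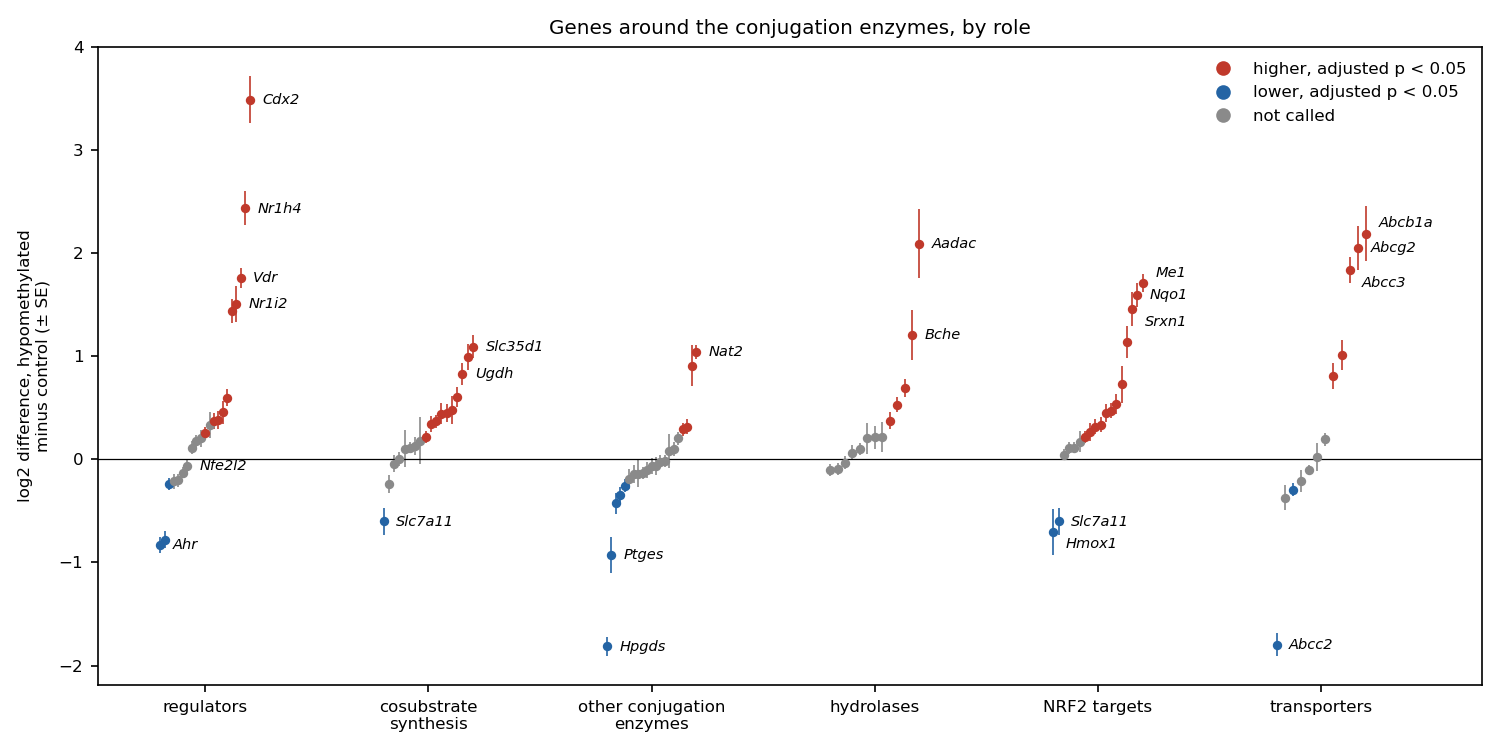
Log2 difference between hypomethylated and control tumours (vertical axis, points with SE, n = 3 per group) for the measured genes of 6 lists around the conjugation enzymes, sorted within each list. Cdx2 (3.49) and Nr1h4 (2.43) lie highest, and Hpgds (-1.81) and Abcc2 (-1.80) lowest.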

How the data were processed

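RNA of 6 mouse colon tumours was biotin-labelled and hybridised to Affymetrix arrays, per the labels' protocols. The authors deposited what reads as log2 signal (the base was inferred) for 28856 probe sets on 6 arrays, with the median of every probe set at 0. How arrays were normalized and summarised is "not given in the sources used here". Of the probe sets 21789 carry 1 gene symbol in the platform annotation, 1621 several and 5446 none; only the first were used, averaged per gene (64 probe sets for the 62 enzymes; Gstm3 and Ces5a have 2 each). All 62 symbols matched RefSeq (GRCm38.p6) by Entrez number, none changed.

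Groups follow the titles. Genes were tested with limma 3.58.1 in R 4.3.3 (lmFit, eBayes without trend, no block, no filter, two-sided, Benjamini-Hochberg over all 19938 genes, threshold 0.05). The steps of the values were read as all values at 8 or above where differences between arrays are multiples of the coarser step. Members and lists were chosen with earlier results of these data known. Named genes are enzymes called with at least a 2-fold difference, the extremes of each family, up to 4 genes per list with the smallest p and 10 named in any case. The rule lets other enzymes be named by their difference; values per tumour of Sult1c2, Ces2f, Ces1g and Gsta3, and list genes past 4 per list, were chosen after their values were seen. Scripts were tested on simulated data. Alternatives were the replicate block, quantile normalization, centring of arrays, array weights, robust eBayes, genes with 1 probe set, genes on the coarser step, a threshold of 0.01 and leaving out each tumour. Arrays carry no read depth; their number limits precision. Promoter windows are from RefSeq, 1 per gene.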

Additional observations from a re-analysis of the deposited data

Results flagged for a closer look

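Probe sets that list several genes stand outside the comparison, because their signal cannot be given to 1 gene. Of the 10 whose lists include a member of these families, 7 were called higher in a fit over all 28856 probe sets, of which 2866 were called higher, and they were looked at for that reason. The single probe set of the Ugt1a locus, which lists 8 genes, was at -0.56, -0.68 and -0.48 in the controls against 0.48, 1.36 and 1.15 in the hypomethylated tumours, a difference of 1.57 ± 0.22 (SE; adjusted p = 0.00340), while of the family 2 genes 0 of 8 rose. The 4 alpha-class Gst probe sets, each listing the same 4 genes, differed by 1.96, 2.02, 2.81 and 2.94 (adjusted p from 0.00197 to 0.00270), against 0.42 and 0.26 for Gsta4 and Gsta3; the 4 rank the tumours alike within the hypomethylated group, and whether they read the same transcripts was not tested. The pi-class probe sets differed by 0.43 and 0.44 (adjusted p = 0.00538 and 0.00501). The remaining 3, of Ugt2a and Sult2a genes, differed by 0.05 to 0.06 and did not pass.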

How the results depend on the processing

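No called enzyme changed direction under any alternative; 17 of the 26 kept their call in every alternative in which they were tested, and 8 of the 36 others passed in at least 1. The number of enzymes that rose, 19, became 12 at a threshold of 0.01 and 11 among genes on the coarser step, where fewer genes are tested. Only 24 of the 62 enzymes are among those genes, with 2 Ces, 2 Sult and 2 Ugt genes. Counts there are therefore not comparable with those over all 62. The median difference of these 24 enzymes was 0.31, and 2 Sult rose and 1 Ugt fell. The Ces counts were 0 higher and 0 lower, and the 2 Ces genes, Ces1g and Ces4a, did not pass in the main fit either. At 0.01, 3 Ces and 1 Sult rose, 1 Ugt fell, and 28 related genes rose and 5 fell. With the replicate block 3 Ces rose, 1 Ugt fell and 6 related genes fell. Under quantile normalization 1 Ugt fell, and with array weights 2 Ces fell; the cause was not tested. Deviations of same-numbered tumours from their group means had correlations of -0.29, -0.31 and -0.22. Those of differently numbered tumours had correlations between 0.05 and 0.29. What same-numbered tumours share was not tested. With the block 16 enzymes rose and 6 fell, against 1543 and 2714 of all genes. Leaving out 1 tumour gave 14 to 22 enzymes that rose and 5 to 8 that fell, with a median of 0.10 to 0.15. By family the counts that rose were 3 to 6 Ces, 5 to 8 Gst, 3 Mgst, 2 to 6 Sult and 0 Ugt, and those that fell were 1 to 2 Ces, 3 to 5 Gst, 0 Mgst, 0 Sult and 1 to 2 Ugt. Related genes rose in 32 to 43 cases and fell in 8 to 13. Without background signal a low group can lie at the floor of the array, so its difference is then a lower estimate, and for the 28 uncalled enzymes on the finer step a flat signal does not show expression.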
